A study of Mus musculus with 4 samples.

Results

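Genes of cholesterol synthesis, sterol sensing and sterol export were followed in BEKO, a mouse thymic lymphoma cell line of wild-type genotype, with 2 RNA libraries from each of 2 culture densities, low and high. The 28 genes were chosen by symbol from the 25630 rows of the deposited table, and all 28 were found. They comprise 7 enzymes from acetyl-CoA to farnesyl diphosphate, 11 enzymes from squalene formation to cholesterol, 5 sterol-sensing genes, 1 carrier of free sterol and 4 genes of the LXR receptor and its export programme. All libraries come from 1 cell line, so there is no second line or untransformed T cell to compare with. Cell number, medium, serum and culture time are not in the labels, nor is it stated that libraries of 1 density were grown separately. P-values thus reflect the spread among these 4 libraries alone, and that spread may be technical.

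Cholesterol is made from acetyl-CoA through mevalonate, farnesyl diphosphate, squalene and lanosterol. When sterol in the endoplasmic reticulum is low, the escort protein SCAP carries the transcription factor SREBP2 to the Golgi, where proteases release its active part, which switches on the genes of synthesis and uptake. When sterol is plentiful, INSIG proteins hold SCAP back, and oxysterols activate the LXR receptors, whose targets export cholesterol. Proliferating lymphocytes need sterol for new membrane, and activated T cells are known to raise SREBP2 targets and to lower LXR signalling.

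Values are in TPM, the authors' transcript abundances, each library summing to 1000000, which are scaled by transcript length and keep no sequencing depth. The T-cell markers Cd3e, Cd3d, Cd3g, Cd247, Lck, Thy1, Cd2 and Ptprc were expressed in every library, with summed levels of 6092 to 6656 TPM. Of 6 macrophage markers, Lyz2, Mertk and C1qa were at 0 in all 4 libraries, Csf1r and Adgre1 reached at most 0.203 and 0.0243 TPM, and Cd68 alone gave 8.46 to 17.7 TPM. The collagen gene Col1a1 stood at 30.3 TPM in low density library 1 and at 0 to 0.236 TPM in the other libraries. In bulk RNA, fewer cells of a type and less RNA per cell cannot be told apart.

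Promoter sequence is shown for 4 genes that stand for the patterns described further on: Hmgcs1, which differed most between the high density libraries, Idi1, which was lower in both of them, Ebp, which differed least among the synthesis enzymes, and Insig2, which was higher in both. Each is the 250 bases before the transcription start in RefSeq (build GRCm38.p6), read 5′ to 3′ on the gene's own strand. Capitals mark CCAAT boxes, the sequence bound by NF-Y, a partner of SREBP, on either strand (CCAAT or ATTGG), and in Hmgcs1 also the match to TCACNCCAC, an SREBP element of the SRE-1 type. Hmgcs1 lies at chr13:119690101-119690350 on the plus strand, Idi1 at chr13:8885356-8885605 on the plus strand, Ebp at chrX:8193513-8193762 on the minus strand, and Insig2, at the most upstream of its listed starts, at chr1:121332590-121332839 on the minus strand.
Hmgcs1: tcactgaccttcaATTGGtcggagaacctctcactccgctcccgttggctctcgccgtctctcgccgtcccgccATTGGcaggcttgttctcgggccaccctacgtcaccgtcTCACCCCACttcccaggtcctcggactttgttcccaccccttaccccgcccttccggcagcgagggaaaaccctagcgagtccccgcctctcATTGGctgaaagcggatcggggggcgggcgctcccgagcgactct
Idi1: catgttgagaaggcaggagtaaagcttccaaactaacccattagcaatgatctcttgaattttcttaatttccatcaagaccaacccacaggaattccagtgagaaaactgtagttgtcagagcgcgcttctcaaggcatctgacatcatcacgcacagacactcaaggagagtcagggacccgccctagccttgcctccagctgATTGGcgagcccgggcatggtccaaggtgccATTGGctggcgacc
Ebp: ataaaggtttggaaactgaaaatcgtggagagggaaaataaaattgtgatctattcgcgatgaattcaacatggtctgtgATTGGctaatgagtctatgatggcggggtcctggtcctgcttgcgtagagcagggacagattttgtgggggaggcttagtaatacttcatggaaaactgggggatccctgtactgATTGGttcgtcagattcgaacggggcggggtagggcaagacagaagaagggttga
Insig2: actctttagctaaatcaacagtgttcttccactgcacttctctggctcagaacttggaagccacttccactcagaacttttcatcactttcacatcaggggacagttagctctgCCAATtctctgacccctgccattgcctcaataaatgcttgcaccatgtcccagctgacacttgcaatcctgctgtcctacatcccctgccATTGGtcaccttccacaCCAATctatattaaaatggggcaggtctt
Hmgcs1 has 3 CCAAT boxes and the SREBP element, whose bases lie 129 to 137 before the start. Idi1 and Ebp each have 2 CCAAT boxes and Insig2 has 3, and the TCACNCCAC letters do not occur in these 3 windows. The windows at the other listed starts of Insig2 held no CCAAT box, and which start these cells use was not tested.

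The sterol synthesis genes were detected in all 4 libraries, at 7.99 TPM or more, and none was called between the densities. In most of them the 2 high density libraries stood on opposite sides of the low density pair. High density library 2 was the lowest of the 4 libraries in 19 of the 25 genes above the expression filter, against 12.4% of all rows. Together, the 18 synthesis enzymes summed to 2630 and 1944 TPM in the low density libraries, to 3197 TPM in high density library 1 and to 980.2 TPM in high density library 2. The densities were contrasted by limma on log2(TPM + 1) over rows whose mean reached 1 TPM, and a row was called at a Benjamini-Hochberg adjusted p under 0.05 over all rows tested. Of the 28 genes 25 passed that filter, and 0 of the 25 were called in either direction, where 6.68% of all 10936 rows tested were called. By unadjusted limma p under 0.05 there were 4 of 25, where 23.5% of all rows reached that level, and no other tool was run. The median log2 fold change of the 25 was -0.17, beside 0.12 over all rows tested. A missed threshold with such a spread does not show that the genes were alike at the 2 densities.

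**Figure D1:**
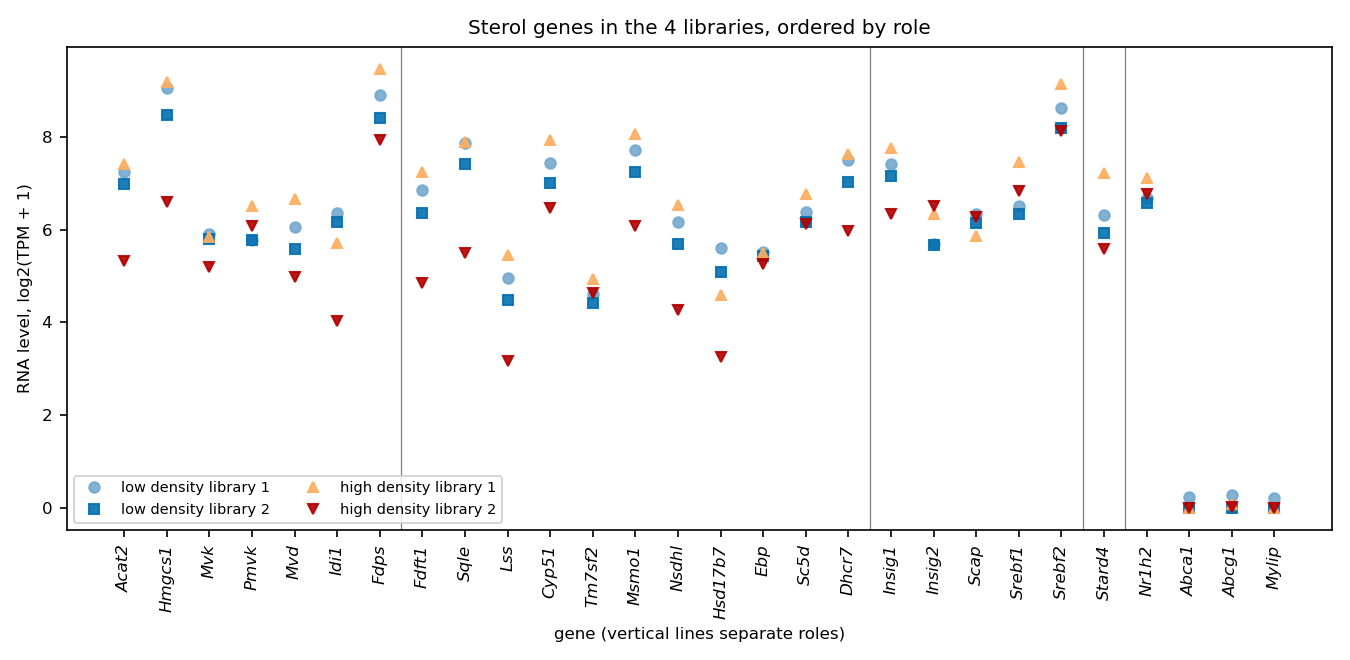
RNA level of the 28 genes as log2(TPM + 1) (y axis) in each of the 4 libraries (1 symbol per library), ordered by role along the x axis. High density library 2 (downward triangles) is the lowest of the 4 for 19 genes of the 25 above the filter, while Abca1, Abcg1 and Mylip lie at or near 0 in every library.

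The early enzymes of the mevalonate route showed this split. Hmgcs1, the cytosolic HMG-CoA synthase, was at 530 and 355 TPM in the low density libraries, 583 TPM in high density library 1 and 96.2 TPM in high density library 2. The level in high density library 1 was above both low density libraries, and that in high density library 2 was far below them. The log2 fold change was -0.87 ± 0.59 (SE, n = 2 per group, limma adjusted p = 0.412), with a 95% interval from -2.17 to 0.43. Acat2, the thiolase that joins 2 acetyl-CoA, was at 152 and 126 TPM at low density and at 171 and 39.1 TPM at high density, again with the groups overlapping. Acat3, a paralogue of Acat2, was at 0.579 to 1.98 TPM, and the sources used here do not say how reads were divided between close copies. The kinase Mvk, which acts on mevalonate, was at 58.8 and 54.9 TPM and then at 56.4 and 35.5 TPM, so that only high density library 2 lay outside the low density range.

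Further along, the pattern divided. Mvd, the decarboxylase that makes isopentenyl diphosphate, was at 65.8 and 46.9 TPM at low density, 100 TPM in high density library 1 and 30.6 TPM in library 2. Its 2 high density values cancelled to a log2 fold change of 0.00015. Fdps, the farnesyl diphosphate synthase, had the highest level of the early enzymes at high density, though not at low density, where Hmgcs1 was higher. It was at 481 and 338 TPM and then 708 and 244 TPM. Pmvk, the phosphomevalonate kinase, stood apart, with 53.5 and 54.1 TPM at low density and 90.8 and 66.9 TPM at high density. Both of its high density values were above the low density pair (log2 fold change 0.53 ± 0.25 SE, limma adjusted p = 0.24).

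Idi1, the isomerase that makes dimethylallyl diphosphate, was lower in both high density libraries. It was at 80.8 and 70.6 TPM at low density and at 51.8 and 15.4 TPM at high density, with no overlap (log2 fold change -1.38 ± 0.43 SE, limma adjusted p = 0.0781). Hsd17b7, the ketosteroid reductase of the later route, was at 48.0 and 32.8 TPM and then at 23.0 and 8.57 TPM. Its log2 fold change was -1.43 ± 0.40 (SE), and its limma adjusted p, 0.0545, was the lowest of the 25 genes. Idi1 and Hsd17b7 were the only genes of the 25 with both high density libraries below both low density ones, an arrangement found in 20% of all rows tested. With a filter at a mean of 5 TPM, both were called lower (limma adjusted p = 0.0347 and 0.0235), where 3% of rows tested were called lower. Both were also called with the replicate number as a block. Neither was called without the trend (limma adjusted p = 0.138 and 0.0948) or with robust moderation (0.215 and 0.0708). The same held after median centring (0.175 and 0.132) and after quantile normalization (0.185 and 0.135).

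From squalene onward the split was wide in 8 of 11 enzymes, those in which high density library 2 was lower than library 1 by at least 1 log2 unit. Fdft1, the squalene synthase, was at 115 and 81.4 TPM at low density, 152 TPM in high density library 1 and 28.1 TPM in library 2. Sqle, the epoxidase that limits this stretch of the route, was at 232 and 170 TPM and then at 236 and 44.2 TPM (log2 fold change -0.95 ± 0.55 SE, limma adjusted p = 0.329). Lss, which closes the ring to form lanosterol, was at 30.1 and 21.5 TPM and then at 42.9 and 7.99 TPM. In each of these 3 genes high density library 1 was the highest of the 4 libraries and high density library 2 the lowest.

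Among the enzymes that follow, Cyp51, Msmo1, Nsdhl and Dhcr7 kept the same order of libraries. Hsd17b7, described above, did not, as it was lower in both high density libraries. Cyp51, the lanosterol 14-demethylase, was at 171 and 127 TPM at low density and at 245 and 87.1 TPM at high density. Msmo1, the sterol C4-methyl oxidase, was at 208 and 152 TPM and then at 266 and 66.9 TPM, and its partner Nsdhl was at 70.7 and 50.6 TPM and then at 91.9 and 18.2 TPM. Dhcr7, the last reductase, was at 181 and 130 TPM and then at 197 and 62.2 TPM. The groups overlapped for all 4 genes, since 1 high density value lay on each side of the low density pair.

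The remaining 3 enzymes differed less between libraries. Ebp, the sterol isomerase, was at 45.1 and 42.5 TPM at low density and at 44.2 and 37.2 TPM at high density (log2 fold change -0.11, 95% interval -0.66 to 0.45). Sc5d, the sterol desaturase, was at 82.2 and 70.6 TPM and then at 108 and 68.4 TPM. Tm7sf2, a sterol C14 reductase, was at 23.6 and 20.4 TPM and then at 29.7 and 24.0 TPM, with both high density libraries above the low density pair but the higher low density value and the lower high density value nearly equal. Tm7sf2 overlaps Vps51 and Fdps overlaps Gm43738 on the same strand in the GRCm38 annotation, and Cyp51, Fdft1, Mvd and Srebf1 each overlap a coding gene on the opposite strand, so their levels are less certain where the counting could not separate such reads.

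**Figure D2:**
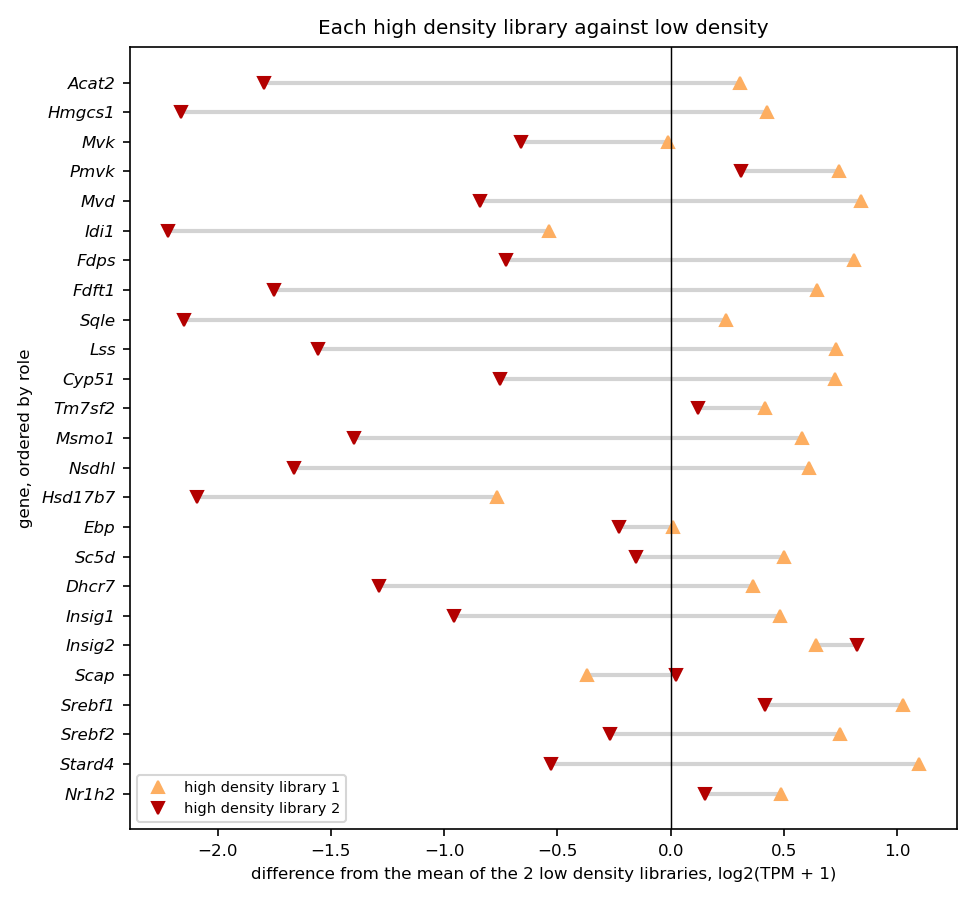
Difference of each high density library from the mean of the 2 low density libraries, in log2(TPM + 1) (x axis), for the 25 genes above the filter (y axis, ordered by role). High density library 2 lies left of 0 for most synthesis enzymes and library 1 right of it, whereas Idi1, Hsd17b7 and Mvk (by -0.011 in library 1) lie left of 0 in both and Pmvk, Tm7sf2, Insig2, Srebf1 and Nr1h2 right of 0 in both.

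The sterol sensors did not all follow the enzymes. Insig1, an SREBP2 target that retains SCAP, was at 170 and 142 TPM at low density, 217 TPM in high density library 1 and 79.6 TPM in library 2, the same order as most enzymes. Insig2, its relative, was at 50.9 and 50.3 TPM at low density and at 79.5 and 90.4 TPM at high density. Here both high density libraries were above the low density pair, as they were for 5 of the 25 genes and for 34.7% of all rows tested, and they lay close to each other (log2 fold change 0.73 ± 0.24 SE, limma adjusted p = 0.0923). Insig2 was called higher without high density library 1 (limma adjusted p = 0.013, log2 fold change 0.82), and likewise with library 1 as the only high density library (0.0398, 0.64), in fits where the lone high density library is assumed to vary like the low density pair. It was not called when low density library 1 (limma adjusted p = 0.6) or 2 (0.838) was left out.

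Of the SREBP genes, Srebf2 was at 394 and 290 TPM at low density, 568 TPM in high density library 1 and 280 TPM in library 2. Its range between the high density libraries, 2.03-fold, was narrower than the 6.06-fold of Hmgcs1. Srebf1, which encodes the SREBP1 forms and is a target of LXR, was at 90.1 and 80.6 TPM at low density and at 174 and 114 TPM at high density, without overlap (log2 fold change 0.72 ± 0.26 SE, limma adjusted p = 0.126). Scap was at 80.4 and 69.6 TPM and then at 57.7 and 76.1 TPM, and was the gene of the 25 with the largest excess of high density library 2 over library 1 (0.40 on the log2 scale). Stard4, a carrier of free cholesterol and an SREBP2 target, was at 78.4 and 60.1 TPM and then at 148 and 47.3 TPM.

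Of the 4 known LXR targets among the 28 genes, the 3 that act in export and receptor turnover were nearly silent. Abca1, the cholesterol exporter, was at 0.169 TPM in low density library 1 and listed at 0 in the other 3 libraries. Mylip, which encodes a ubiquitin ligase that removes the LDL receptor, was at 0.158 TPM in low density library 1 and listed at 0 elsewhere. Abcg1, a second exporter, was at 0.217 TPM in low density library 1, 0 in low density library 2, and 0.0539 and 0.0142 TPM at high density. The highest value of each of the 3 genes was in low density library 1, the library that also held Col1a1, and the part of other cells in these traces was not tested. All 3 lay below the filter and have no test. Nr1h2, the LXRβ receptor gene, was present at 102 and 94.7 TPM at low density and at 138 and 109 TPM at high density (log2 fold change 0.32 ± 0.24 SE, limma adjusted p = 0.458). Of these 4 LXR targets only Srebf1 passed the filter. LXR targets outside the 28 genes did pass it, with log2 fold changes that ran from -0.33 to 0.98 over 4 genes, of which 1, Arl4c, was called and is described further on.

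The split between the high density libraries was shared by the 21 genes listed as known SREBP2 targets, which are the 18 enzymes with Insig1, Srebf2 and Stard4. High density library 2 was below library 1 in 21 of 21, against 28.8% of all rows tested, and lower by at least 1 log2 unit in 16 of 21, against 2.59% of all rows. The median difference was -1.63 on the log2 scale, ranging from -2.59 for Hmgcs1 to -0.24 for Ebp, while the median of all rows was 0.27. In 15 of the 21, high density library 1 was above and high density library 2 below both low density libraries, an arrangement seen in 3.3% of all rows. The opposite arrangement occurred in 0 of the 21 and in 17.9% of all rows. The 4 other genes above the filter, Insig2, Scap, Srebf1 and Nr1h2, had a median difference of -0.076, with 2 lower and 2 higher in library 2. These are comparisons of single libraries, so they carry no test and say nothing of density.

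**Figure D3:**
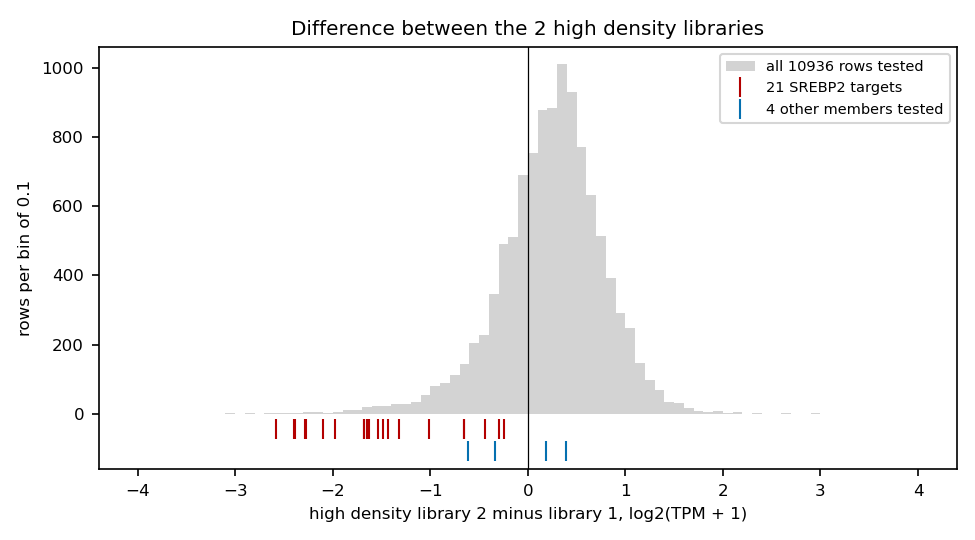
Distribution over all 10936 rows tested of the difference between the high density libraries, library 2 minus library 1, in log2(TPM + 1) (x axis; y axis, rows per bin of 0.1). Tick marks under the histogram show the 21 SREBP2 targets, all left of 0 with a median of -1.63, and the 4 other genes above the filter, between -0.61 and 0.40.

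For most of these genes, the sign of the difference from low density depended on which high density library was kept. Without high density library 1, 15 of the 25 were called lower and 1 (Insig2) higher, where 6.81% of rows were called lower and 23.1% higher. The largest decreases were those of Idi1 and Hmgcs1 (log2 fold change -2.22 and -2.16). Here, and in the fit without high density library 2, the lone high density library is assumed to vary like the low density pair. The calls of these fits thus carry none of the spread between the high density libraries and cannot show an effect of density. Without high density library 2, 0 were called lower and 8 higher, where 10.9% of rows were called lower and 11.2% higher. These were Pmvk, Mvd, Fdps, Cyp51, Insig2, Srebf1, Srebf2 and Stard4, with Stard4 the highest (log2 fold change 1.10). Mvd, Fdps and Cyp51 were thus called lower with library 2 as the high density group and higher with library 1. The median log2 fold change of the 21 SREBP2 targets was -0.34 over all libraries, -0.96 with library 2 as the only high density library and 0.50 with library 1 as the only one. Without low density library 1 or 2 it was -0.18 and -0.38, and 0 of the 25 genes were called in either fit, where 2.93% and 2.13% of rows were called.

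The low density libraries differed in the same direction but by less. Low density library 2 was below low density library 1 in 20 of the 21 SREBP2 targets, against 69.7% of all rows, with a median difference of -0.44 on the log2 scale beside -0.12 over all rows. The exception was Pmvk, whose difference was 0.016. No target differed by as much as 1 log2 unit, and the widest gap was that of Hmgcs1 at -0.58. Genes with a wide gap at low density also tended to have a wide gap at high density, with r = 0.74 across the 21 genes and r = 0.042 across all rows tested. Genes are not independent replicates, and the points of each pair share their libraries, so the value is a description. Library numbers do not mark a shared culture in the labels.

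**Figure D4:**
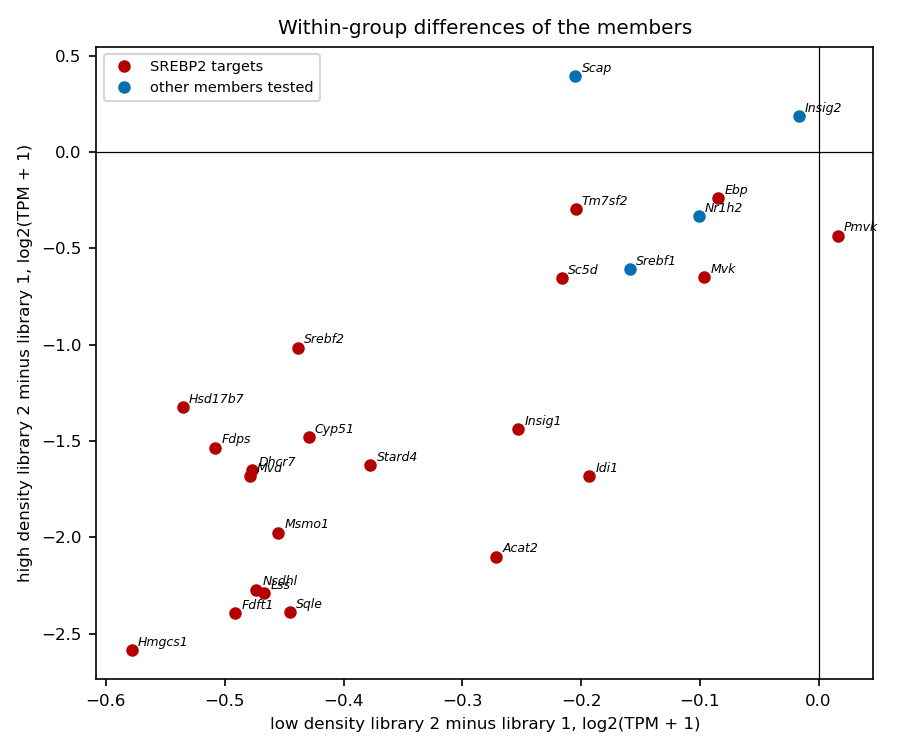
Difference between the low density libraries (x axis) and between the high density libraries (y axis), each library 2 minus library 1 in log2(TPM + 1), for the 25 genes above the filter. The SREBP2 targets run from Pmvk and Ebp near 0 to Hmgcs1 at -0.58 and -2.59.

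Promoter windows of 300 bases, 250 before and 50 after the start, were listed in RefSeq for 23 of the 28 genes. Some genes have several listed starts, and a gene was counted for a motif when any of its windows held it. A CCAAT box on either strand was found in 16 of the 17 SREBP2 targets with a window, against 41.1% of all 27025 genes with a window and 43.5% of the 8418 genes that also passed the expression filter. A GC box (GGGCGG, bound by SP1) was found in 16 of 17, against 38.2% and 69.7%. The SREBP element TCACNCCAC was found in Hmgcs1 alone, against 1.44% and 1.4%. The E-box CACGTG, which SREBP1 also binds, was found in Dhcr7, Hsd17b7, Insig1 and Sc5d, 4 of 17, against 8.09% and 12.1%. The core of the hypoxia response element, ACGTG, which lies within every CACGTG, was found in the same 4 windows, against 21.8% and 29.8%. The LXR element (AGGTCA, 4 free bases, AGGTCA again) was found in none of the 23 and in 0.0148% of all genes. A match is a description of letters, and the absence of a match says only that these exact letters are not in the window.

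Other genes of sterol and isoprenoid metabolism were taken from a list of 57 found in the table, of which 50 passed the filter. Of these 1 was called higher and 0 lower, where 4.57% and 2.11% of all rows were called, and 8 of the 50 had an unadjusted limma p under 0.05, where 23.5% of all rows did. The called gene was Arl4c, a small GTPase and LXR target, at 53.0 and 44.1 TPM at low density and at 83.0 and 112 TPM at high density. Both high density libraries were above the low density pair (log2 fold change 0.98 ± 0.26 SE, limma adjusted p = 0.0453). It missed the threshold when low density library 1 (limma adjusted p = 0.237) or 2 (0.666) was left out, after median centring (0.0604) and after quantile normalization (0.0616). Lbr, which has sterol C14 reductase activity beside its role in the nuclear envelope, was at 350 and 281 TPM and then at 607 and 369 TPM (limma adjusted p = 0.213). Npc2, which binds cholesterol in the lysosome, was at 223 and 208 TPM and then at 348 and 208 TPM (limma adjusted p = 0.515). Over the 50 genes the median difference between the high density libraries was 0.23, close to that of all rows. In library 2, 3 of 50 were lower by at least 1 log2 unit, against 2.59% of all rows. All 3 were genes of synthesis and uptake, and the median over the 50 does not describe that part of the list.

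The libraries themselves differed in ways that bear on these values. The median log2(TPM + 1) of tested rows was 5.34 in high density library 2 and 4.94 to 5.05 in the other 3, so the lower sterol genes of that library lay against a raised median. Centring each library on its median widened the median difference of the 21 targets between the high density libraries to -1.94. Rows above 0 numbered 15553 in low density library 1 and 13605 to 13892 in the other 3. Summed T-cell markers were 6656 TPM in high density library 1 and 6143 TPM in library 2. The part of culture conditions, depth or RNA quality in the split was not tested, and with TPM alone the depth of each library is unknown.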

How the data were processed

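RNA of the BEKO cell line was measured in 4 libraries, 2 per density. A small-scale column kit yielded the RNA, and a commercial provider built strand-specific libraries, per the labels' protocols. The authors deposited 1 table of TPM values with 25630 rows, and each column sums to 1000000. Per the submitters' processing notes, build mm9 and DESeq2 1.2.10 were used, with no role given. Aligner, counter and annotation: not given in the sources used here. Columns were matched to samples through the names that the sample descriptions quote.

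Rows averaging 1 TPM or more (10936, with 14694 below) were fitted as log2(TPM + 1) with limma 3.58.1 in R 4.3.3, with a group term, a mean-variance trend and two-sided tests, adjusted by Benjamini-Hochberg over all rows tested. There were 2 residual degrees of freedom, and moderation added 9.53. An exact permutation test of 2 against 2 libraries cannot go below p = 0.333 and was not used. The fit was run on simulated data with independent rows and a fixed spread. Such data hold no shift shared by many genes within a library, so they do not cover the split described here. TPM keeps no depth, so no counting interval is given, and log2(TPM + 1) understates changes of weak genes. The 28 genes and all lists were chosen with earlier results of these data known. All 28 are described. Of the other sterol genes the rule named called ones and the 3 of highest mean TPM among the rest, of which 1 is not reported here. Alternatives were 2 pseudocounts, 2 filters, 2 scalings, limma without the trend or with robust moderation, each library left out, and a replicate term. Promoters are those of RefSeq (GRCm38.p6), a build other than that of the table, and were used for sequence only.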

Additional observations from a re-analysis of the deposited data

How the results depend on the processing

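Count of all rows called (500 higher, 231 lower): 160 were higher after median centring and 216 after quantile normalization, 144 were lower after quantile normalization and 144 without the trend, and 0 and 0 were called without the filter. Leaving out 1 library gave 145 to 2525 higher and 86 to 1193 lower. The count of the 28 sterol genes (0 and 0) became 2 lower with the filter at 5 TPM, and ranged from 0 to 8 higher and from 0 to 15 lower when 1 library was left out. The replicate number as a block gave 4 lower sterol genes (Hmgcs1, Idi1, Sqle and Hsd17b7) and 2 lower other sterol genes. Over the whole table it gave 600 rows higher and 337 lower. The labels tie nothing to the replicate numbers. The deviations of the pairs correlated at r = 0.042 over all rows tested and at r = 0.79 over the 25 sterol genes above the filter. Neither value decides whether the numbers mark a pairing. For the other sterol genes (1 higher, 0 lower), 2 were higher with the filter at 5 TPM and 0 without the filter, after median centring, after quantile normalization or without the trend, with 0 to 12 higher and 0 to 5 lower when 1 library was left out. The median of the 21 SREBP2 targets was -0.96 to 0.50 when 1 library was left out. Their difference between the high density libraries, -1.63, was -1.94 after median centring and -1.91 after quantile normalization. Signs turned for Mvd with a pseudocount of 0.1 (-0.0037), after median centring (-0.19) and after quantile normalization (-0.18), and after median centring for Fdps (-0.14) and Sc5d (-0.013). Leaving out 1 library also turned signs, with log2 fold changes from -1.79 to 0.31 for Acat2, -2.16 to 0.43 for Hmgcs1, -0.84 to 0.84 for Mvd, -0.73 to 0.81 for Fdps, -1.75 to 0.65 for Fdft1, -2.15 to 0.24 for Sqle, -1.56 to 0.73 for Lss, -0.75 to 0.73 for Cyp51, -1.40 to 0.58 for Msmo1, -1.66 to 0.61 for Nsdhl, -0.23 to 0.012 for Ebp, -0.15 to 0.50 for Sc5d, -1.29 to 0.36 for Dhcr7, -0.96 to 0.48 for Insig1, -0.37 to 0.025 for Scap, -0.27 to 0.75 for Srebf2, -0.53 to 1.10 for Stard4 and -0.053 to 0.69 for Npc2. The ends of these ranges came from leaving out 1 or the other high density library. Signs also turned without low density library 2 for Mvd (-0.24) and Fdps (-0.21), and without low density library 1 for Cyp51 (0.20). For the scalings the cause was not tested. Depth is unknown, so it could not be weighed for any gene.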
